A study of Mus musculus with 8 samples.

Results

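Nfil3, the bZIP repressor of the circadian clock's output arm, the PAR bZIP activators Dbp, Tef and Hlf, the basic helix-loop-helix repressors Bhlhe40 and Bhlhe41 and the nuclear receptor Rora were followed across 8 arrays of mouse soleus, a slow postural muscle of the lower leg. The members were these 7 gene names, and every non-control array probe that carried one of them was kept, which gave 15 of the 56605 probes on the array. Of 22223 genes measured, they make up 7. The members were chosen by name with their log2 difference between the groups on these arrays already known, so that difference is given for them as a description, without a p-value.

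The 8 samples came from male C57BL/6J mice that were 8 weeks old at the start and 14 weeks old at sampling, and all of them ate a high-fat diet. In the P. gingivalis group (4 arrays), Porphyromonas gingivalis, a bacterium of human gum disease, was given in saline through a feeding needle over 6 weeks. The saline group (4 arrays) was given the saline alone, and the comparison asks how the bacterium bears on expression in muscle. Since the labels leave it unsaid whether every array was a mouse of its own, p-values speak of the spread among these 8 samples only, which may in part be technical. The hour of the day at which muscle was collected is not given in the sources used here, and clock output genes change over the day.

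Each value below is the log2 of a probe's background-subtracted signal minus the 75th percentile of that array, so 0 is the signal at that percentile, which was itself 648 to 764 signal units. The count of probes well above background was 30215 to 34114 on the saline arrays and 34859 to 35401 on the P. gingivalis arrays. All 8 arrays lay on 1 slide, saline on 1 side and P. gingivalis on the other, so the side and the group cannot be told apart. The 8 slow-fibre markers (Myh7, Tnnt1, Tnni1, Tnnc1, Myl2, Myl3, Atp2a2 and Myoz2) were all well measured. So were all 8 fast-muscle markers, so this does not check the label soleus.

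In the circadian clock, the activators Clock and Arntl drive genes through E-box sequences, and their products Per, Cry, Bhlhe40 and Bhlhe41 repress that drive. A further layer acts on RORE sequences, where Rora activates and Nr1d1 and Nr1d2 repress, and Nfil3 and Arntl are targets of that layer. The PAR bZIP factors Dbp, Tef and Hlf activate genes through D-box sequences, and Nfil3 represses through the same sequences, so Nfil3 and Dbp are commonly found at opposite phases of the day. Outside the clock, Nfil3 is known for its need in the development of natural killer and other innate lymphoid cells.

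The probes on which the results turn are shown first, because they decide what can be said for each gene. Both Nfil3 probes read the minus strand of chromosome 13 in build mm9, at chr13:53062578-53062637 and chr13:53062585-53062644. They share 53 of their 60 bases, and the capitals mark shared bases in the first 30 of each.
Nfil3 a: TTTGCTCTATTATAAAGTGTGTATGTTGCC
Nfil3 b: cgttattTTTGCTCTATTATAAAGTGTGTA
They are therefore not independent measurements of Nfil3, and their values followed each other at r = 0.98 over the 8 arrays. The Bhlhe41 probes, on the minus strand at chr6:145806764-145806823 and chr6:145812652-145812711, start 5888 bases apart. Rora has a probe for transcript variant 3 at chr9:68511835-68511894, called Rora a here, and 2 for variant 1 at chr9:69226774-69226833 and chr9:69227536-69227595, called Rora b and Rora c, which start 762 bases apart on the plus strand.
Bhlhe41 a: taaaagccgggtgctaatggtttcggagga
Bhlhe41 b: ttgaaagcgctaacagccttaactgagcag
Rora b: gcgcccgagcacttctagaacatctggagt
Rora c: cacaagtttagctgagaaggcttggaaggt
Both of these pairs read their genes at separate places, and within each pair the probes gave different results, described below. Whether a probe lies in coding or untranslated sequence was not analysed here. All 15 probes had 0 saturated spots and 0 spots with an outlier flag, and 14 were well above background on all 8 arrays. The exception was Rora a, on 7.

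Upstream sequence of the members shows which clock sequences stand near their start sites. RefSeq promoter windows of build GRCm38.p6, from 250 bases before to 50 after the start, were at hand for 6 of the 7 genes (7 windows, with 2 for Tef), and Bhlhe40 is named only. The searched letters, on both strands, were TTATGTAA and TTACGTAA for the D-box, CACGTG for the E-box, TAGGTCA for the RORE and TGACGTCA for the cAMP response element. The 250 bases before the start of 3 members follow, 5′ to 3′ along the gene, with the match in capitals.
Nfil3, chr13:52981040-52981289, minus strand: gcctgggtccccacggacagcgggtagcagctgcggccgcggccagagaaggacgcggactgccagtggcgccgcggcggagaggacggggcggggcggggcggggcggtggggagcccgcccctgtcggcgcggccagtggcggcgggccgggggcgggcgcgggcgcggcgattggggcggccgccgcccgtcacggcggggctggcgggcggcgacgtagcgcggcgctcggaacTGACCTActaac
Bhlhe41, chr6:145865421-145865670, minus strand: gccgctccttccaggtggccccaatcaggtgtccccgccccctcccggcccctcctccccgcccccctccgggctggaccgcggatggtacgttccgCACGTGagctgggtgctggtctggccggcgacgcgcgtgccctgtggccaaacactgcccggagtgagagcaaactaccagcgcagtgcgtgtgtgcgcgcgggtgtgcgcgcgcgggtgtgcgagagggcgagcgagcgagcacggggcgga
Hlf, chr11:90390918-90391167, minus strand: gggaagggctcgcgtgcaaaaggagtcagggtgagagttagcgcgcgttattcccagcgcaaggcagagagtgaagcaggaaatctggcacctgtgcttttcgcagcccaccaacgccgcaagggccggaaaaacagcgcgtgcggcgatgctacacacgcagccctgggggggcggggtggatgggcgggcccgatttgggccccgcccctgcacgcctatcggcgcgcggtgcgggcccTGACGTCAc
The Nfil3 window holds the RORE letters on the strand opposite to the gene, with the first base at -12 from the start, and 2.61% of the 32851 mouse windows hold these letters. The E-box letters begin at -153 in Bhlhe41, and at -127 and -138 in the 2 Tef windows, against 7.15% of all windows. The cAMP response element letters of Hlf begin at -9, against 1.79%. The windows of Dbp and Rora held none of the 5 searched sequences, and 0 of the 6 members held a D-box in either spelling (0.938% and 0.119% of all windows). Among other clock genes, Per3 held TTATGTAA at -205 and -158. A match is a description of these letters, not of a bound site.

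Nfil3 was the member with the largest difference between the groups. On the saline arrays Nfil3 a read 2.33, 2.46, 2.95 and 2.33 in replicates 1 to 4, and on the P. gingivalis arrays 3.51, 3.54, 3.28 and 3.03. The lowest P. gingivalis array thus lay just above saline 3, the highest saline array, and the groups did not overlap. The log2 difference, P. gingivalis minus saline, was 0.83 ± 0.17 (SE, n = 4 and 4), or 1.77-fold. This direction follows the sample records. The column names of the authors' deposited table carry the groups exchanged, and every direction given here would be turned if those names were right. Nfil3 b, which overlaps it, read 2.28, 2.08, 2.75 and 2.09 on the saline arrays and 3.12, 3.21, 2.91 and 2.78 on the P. gingivalis arrays. Its groups were also apart, with saline 3 highest and P. gingivalis 4 lowest within their groups, and the difference was 0.70 ± 0.17 (SE). By size of difference, Nfil3 stood 139th of the 19414 genes well above background on all 8 arrays. The saline array highest for Nfil3, saline 3, was also the array with the fewest probes well above background, and the part of that in the result was not tested. Without saline 3 the Nfil3 difference was 0.97.

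**Figure D1:**
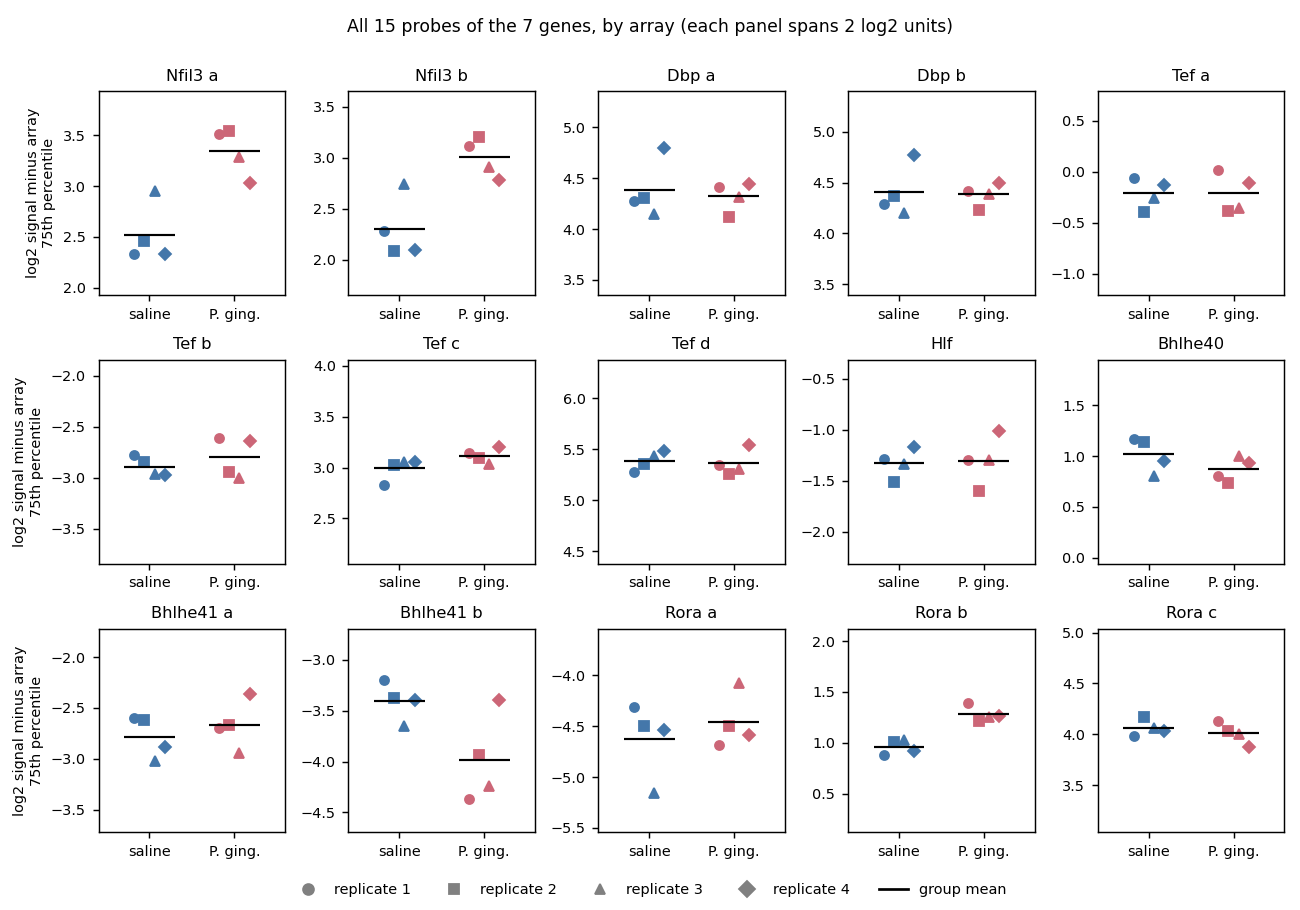
Values of all 15 probes on each array, as log2 signal minus the array's 75th percentile, with saline arrays in blue, P. gingivalis arrays in red, symbols for the replicate number and a line at each group mean. Every panel spans the same number of log2 units, and the groups are apart for Nfil3 a, Nfil3 b and Rora b.

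Dbp, the PAR bZIP activator whose transcript cycles strongly over the day in many tissues, overlapped between the groups. Dbp b read 4.29, 4.37, 4.20 and 4.77 on the saline arrays and 4.41, 4.23, 4.39 and 4.50 on the P. gingivalis arrays. Saline 4 was the highest array, and the other 3 saline arrays lay within the range of the P. gingivalis group or just below it. The difference was -0.02 ± 0.13 (SE). Dbp a, 196 bases upstream (chr7:52965265-52965324 against chr7:52965461-52965520), gave -0.06 ± 0.15 (SE), and the probes followed each other at r = 0.99. Without saline 4, the difference of Dbp b was 0.10.

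Tef, a PAR bZIP activator named for its role in thyrotrophs, had 4 probes on chromosome 15, and their differences ran from -0.03 to 0.12. Tef d (chr15:81657221-81657280), the brightest, read 5.28, 5.36, 5.44 and 5.48 on the saline arrays and 5.34, 5.25, 5.31 and 5.55 on the P. gingivalis arrays, a difference of -0.03 ± 0.08 (SE). The groups overlapped over nearly their whole ranges. Tef c (chr15:81656928-81656987) read 2.83, 3.03, 3.06 and 3.06 on the saline arrays and 3.14, 3.09, 3.03 and 3.20 on the P. gingivalis arrays, a difference of 0.12 ± 0.07 (SE), with saline 1 below all others. Tef a, at chr15:81647233-81647292, differed by 0.00 ± 0.12 (SE). The 60 bases of Tef b are placed over chr15:81651816-81653921, a span of 2106 bases, and it differed by 0.09 ± 0.11 (SE).

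Hlf, the third PAR bZIP activator, has 1 probe (chr11:90201236-90201295). It read -1.29, -1.52, -1.34 and -1.17 on the saline arrays and -1.30, -1.60, -1.29 and -1.01 on the P. gingivalis arrays. The lowest and the highest values both came from the P. gingivalis group, and the difference was 0.03 ± 0.13 (SE). The sign of the Hlf difference turned in 4 of 18 other settings of the processing, that of Tef in 4 and that of Dbp in 3, so no direction is read for these 3 genes.

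Bhlhe40, a repressor that binds E-boxes, has 1 probe (chr6:108616309-108616368). It read 1.16, 1.13, 0.81 and 0.96 on the saline arrays and 0.80, 0.74, 1.003 and 0.93 on the P. gingivalis arrays. Saline 1 and saline 2 were the highest, the remaining 6 arrays interleaved, and the difference was -0.15 ± 0.10 (SE).

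Bhlhe41, the close relative of Bhlhe40, gave opposite signs at its 2 probes. Bhlhe41 a, the brighter, read -2.59, -2.62, -3.03 and -2.88 on the saline arrays and -2.69, -2.67, -2.94 and -2.36 on the P. gingivalis arrays, a difference of 0.12 ± 0.14 (SE) with overlapping groups. Bhlhe41 b read -3.20, -3.38, -3.65 and -3.39 on the saline arrays and -4.37, -3.94, -4.24 and -3.40 on the P. gingivalis arrays. Of the latter, 3 lay below every saline array and the fourth, P. gingivalis 4, lay among them, for a difference of -0.58 ± 0.21 (SE), which was -0.31 with normexp background correction of this dim probe. Within each array, Bhlhe41 a exceeded Bhlhe41 b by 0.51 to 0.76 on the saline arrays and by 1.04 to 1.68 on the P. gingivalis arrays. These ranges did not overlap, which shows unequal change at the 2 probes and not which of them follows the gene. The probes followed each other at r = 0.34 over the 8 arrays. Averaging both turned the sign of the Bhlhe41 difference, to -0.23.

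Rora, the activator at RORE sequences, also split by probe. Rora c, the brightest, read 3.98, 4.17, 4.06 and 4.03 on the saline arrays and 4.13, 4.04, 4.01 and 3.88 on the P. gingivalis arrays, a difference of -0.05 ± 0.07 (SE). Rora b, which the files assign to the same transcript variant 1, read 0.88, 1.01, 1.03 and 0.92 on the saline arrays and 1.39, 1.22, 1.25 and 1.27 on the P. gingivalis arrays. All 4 P. gingivalis arrays lay above all 4 saline arrays at Rora b, by a difference of 0.32 ± 0.06 (SE), while at Rora c the groups overlapped. The value of Rora b minus that of Rora c was -3.16 to -3.03 on the saline arrays and -2.82 to -2.61 on the P. gingivalis arrays. Rora a, the dim probe of variant 3, read -5.16 to -4.31 on the saline arrays and -4.68 to -4.07 on the P. gingivalis arrays, and its difference of 0.17 ± 0.20 (SE) was within its error. With all 3 probes averaged, the Rora difference was 0.15.

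Among the 7 genes, each taken at its brightest probe, 0 had an adjusted p under 0.05 in limma's fit, against 0.117% of all 22223 genes. At an unadjusted p under 0.05 there was 1 gene, Nfil3, against 19.7% of all genes, and its groups alone did not overlap, against 13.4% of all genes, or 7.35% with the P. gingivalis group higher. The P. gingivalis mean was higher for 3 of the 7, against 47.7% of all genes, and the median difference was -0.02 against -0.01 over all genes. Among the 15 probes, 0 passed at the adjusted threshold (0.169% of 33638 probes), 4 had an unadjusted p under 0.05 (20.6%) and 3 had groups apart (14.1%). The 0 of 7 depends on the processing, since Nfil3 passed at the adjusted threshold in 4 of 18 other settings. In those settings 458 to 5154 genes passed in all. Since these differences chose the genes, nothing is read from these counts.

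**Figure D2:**
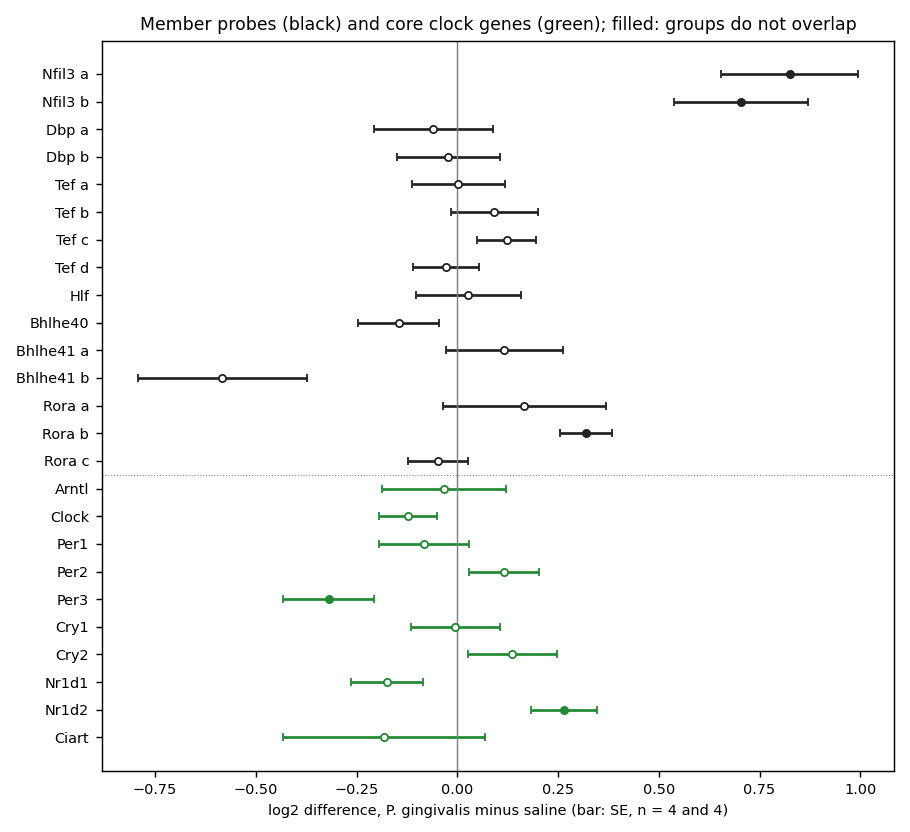
Log2 difference, P. gingivalis minus saline, of each probe of the 7 genes (black) and of the core clock genes given in the text, each at its brightest probe (green), with bars for the SE (n = 4 and 4) and filled points where the groups do not overlap. Nfil3 a lies at 0.83, while Dbp, Tef and Hlf lie between -0.06 and 0.12.

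How the members varied among arrays of a group does not depend on the difference between the groups. With each array's value taken as the deviation from its group mean, 21 pairs of members were compared over 8 arrays by Pearson's r and by Spearman's rho, with a two-sided exact permutation test over all 576 assignments within groups, whose smallest possible p is 0.00174. Of the 21 pairs, 0 passed at a Benjamini-Hochberg adjusted p under 0.05, and the smallest adjusted p was 0.416. For the 3 activators r was 0.58 for Dbp with Tef (exact permutation p = 0.0990, adjusted 0.416; rho = 0.57, p = 0.172), 0.60 for Dbp with Hlf (p = 0.0747, adjusted 0.416; rho = 0.71, p = 0.0660) and 0.77 for Tef with Hlf (p = 0.0747, adjusted 0.416; rho = 0.48, p = 0.288). Without the 2 arrays farthest from the median deviation of the first gene these became 0.89, 0.76 and 0.30, the last of them without P. gingivalis 4 and saline 4.

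For Nfil3 r was -0.62 with Dbp (exact permutation p = 0.163, adjusted 0.428; rho = -0.64, p = 0.115), -0.30 with Tef (p = 0.465, adjusted 0.794; rho = -0.17, p = 0.740) and -0.57 with Hlf (p = 0.139, adjusted 0.428; rho = -0.86, p = 0.0278, adjusted 0.299). The smallest p by Pearson's r was that of Nfil3 with Bhlhe40, r = -0.77 (exact permutation p = 0.0434, adjusted 0.416; rho = -0.74, p = 0.0712). Nfil3 with Rora, at Rora c, had r = 0.53 (exact permutation p = 0.194, adjusted 0.454; rho = 0.79, p = 0.0451, adjusted 0.299). Saline 3 and P. gingivalis 2 were the arrays farthest from the median deviation of Nfil3. Without them r of Nfil3 was -0.35 with Bhlhe40 and -0.26 with Dbp, so these values rest on those arrays, and it was -0.52 with Tef, -0.63 with Hlf and 0.88 with Rora. Saline 3, for example, stood 0.43 above its group for Nfil3 and 0.21 below it for Dbp, and P. gingivalis 4 stood 0.31 below for Nfil3 and 0.11 above for Dbp. Over all 8 arrays the relation of Nfil3 with Dbp did not pass the test.

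**Figure D3:**
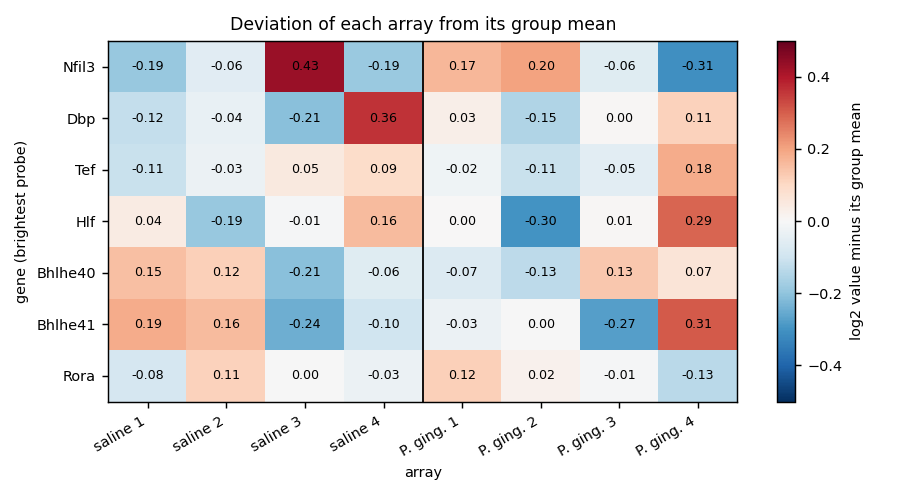
Deviation of each array (columns) from its group mean for each member at its brightest probe (rows), in log2 units, red above and blue below the mean. Nfil3 is highest in saline 3 and lowest in P. gingivalis 4 within the groups, while Dbp is highest in saline 4.

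The rest of the clock was taken from a list of 13 core genes, of which 11 were measured and Npas2 and Rorb were not. Of the 11, 0 had an adjusted p under 0.05 in limma's fit, the P. gingivalis mean was higher for 4 and lower for 7, and the median difference was -0.03 against -0.01 over all genes. With median centring, which moved the median of all genes to 0.13, the mean was higher for 8 of the 11. With the mean of all kept probes of a gene it was also higher for 8. As reported, without either change, 3 had an unadjusted p under 0.05. The RORE repressor Nr1d2 read 2.49 to 2.73 on the saline arrays and 2.81 to 3.08 on the P. gingivalis arrays, a difference of 0.26 ± 0.08 (SE, limma adjusted p = 0.150), with other probes at 0.17 and -0.06. Its partner Nr1d1 differed by -0.17 ± 0.09 (SE, limma adjusted p = 0.325) with overlapping groups, and the RORE target Arntl by -0.03 ± 0.15 (SE, limma adjusted p = 0.922), with 2 dimmer probes at 0.42 and 0.27.

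Of other core clock genes, Per3 read 0.25 to 0.61 on the saline arrays and -0.07 to 0.24 on the P. gingivalis arrays. Its difference was -0.32 ± 0.11 (SE, limma adjusted p = 0.185), but its 2 dimmer probes gave 0.15 and 0.25. The mean of all 3 Per3 probes gave 0.03. The groups did not overlap for Nr1d2 or Per3. Per1 differed by -0.08, Per2 by 0.11, Cry1 by -0.01, Cry2 by 0.14, Clock by -0.12 and Ciart by -0.18, each with overlapping groups and limma adjusted p of 0.381 to 0.985. Dimmer probes gave the opposite sign: 0.18 at Per1, -0.11 at Per2, 0.30 at Cry1 and 0.14 at Ciart. Those of Cry2 gave -0.43 and -0.09. At Clock the probes ran from -0.12 at the brightest to 0.53 at the dimmest. At Rora, Nr1d2 and Arntl the sign also depended on the probe. Both Nfil3 probes gave the same sign, but they share most of their bases, so its direction was not tested at a separate place.

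Genes on which the members act were summarised by further lists. Of 6 D-box outputs, 5 were measured, and 4 had a higher and 1 a lower P. gingivalis mean, with a median difference of 0.10 that leaving out 1 array moved to as little as 0.02 (without P. gingivalis 2 or saline 2), 0.03 (without P. gingivalis 1) or 0.04 (without saline 4). Those with the smallest p were Por, the cytochrome P450 reductase, at 0.11 ± 0.08 (SE, limma adjusted p = 0.487), and Ppara, a receptor for fatty acids, at 0.18 ± 0.23 (SE, limma adjusted p = 0.693), and both groups overlapped at each. Nfil3 is related in its DNA-binding domain to the C/EBP factors. Of 8 C/EBP and related bZIP genes 7 were measured, with 4 higher and 3 lower and a median of 0.06. Ddit3, the stress-induced C/EBP relative, differed by 0.30 ± 0.07 (SE, limma adjusted p = 0.101, groups apart) and Cebpb by 0.30 ± 0.10 (SE, limma adjusted p = 0.173). Of 10 genes that modify clock proteins, 3 were higher and 7 lower, with a median of -0.02 (10 higher with median centring). There, the kinase Gsk3b differed by -0.14 ± 0.06 (SE, limma adjusted p = 0.229) and Nampt, which makes the NAD precursor that sirtuins draw on, by 0.21 ± 0.09 (SE, limma adjusted p = 0.251).

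The lists of muscle clock outputs and of glucocorticoid targets, many of which follow the time of day, had larger median differences. All 10 muscle clock output genes had a higher P. gingivalis mean (median 0.23), against 47.7% of all genes. The count was 9 of 10 under quantile normalization, with the mean of a gene's probes, without saline 4 or without P. gingivalis 1. All 8 slow-fibre markers and 7 of 8 fast-muscle markers also had a higher P. gingivalis mean. The lists were chosen with earlier results of these data known, so nothing is read from their counts. Wee1, a cell-cycle kinase under clock control, read -2.26 to -1.56 on the saline arrays and -1.36 to -1.19 on the P. gingivalis arrays, a difference of 0.59 ± 0.14 (SE, limma adjusted p = 0.0987). Tcap, the telethonin of the sarcomere's Z-disc, differed by 0.25 ± 0.07 (SE, limma adjusted p = 0.115), but by 0.07 under quantile normalization. Of 12 glucocorticoid targets, 11 were higher and 1 lower, with a median of 0.26 (10 higher under quantile normalization, 9 without P. gingivalis 1). Foxo3, a transcription factor of muscle atrophy, differed by 0.30 ± 0.06 (SE, limma adjusted p = 0.0654) and Tsc22d3, a glucocorticoid-induced leucine zipper, by 0.54 ± 0.14 (SE, limma adjusted p = 0.106). In these 5 lists 0 genes passed at the adjusted threshold in this processing (3 glucocorticoid targets and 3 muscle clock outputs did with median centring), and Klf15 and Pdk4 belong to both of the last 2.

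**Figure D4:**
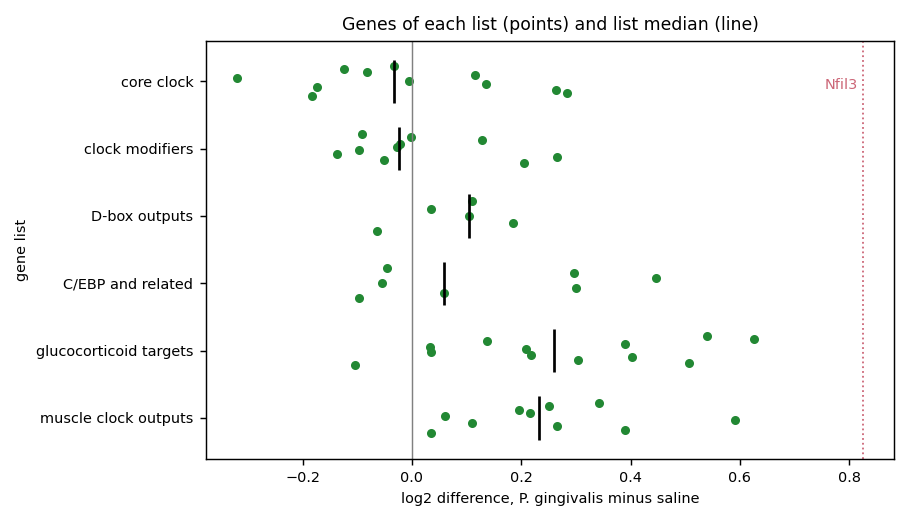
Log2 difference, P. gingivalis minus saline, of each measured gene (points) in the clock lists and related lists, with the list median as a black line and Nfil3 as a dotted line at 0.83. The 10 muscle clock outputs lie above 0 (9 under quantile normalization), and the core clock genes lie on both sides of it.

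Markers of other cells were measured on the same arrays, as summed linear levels in units of the array's 75th percentile. In bulk muscle, fewer cells of a type and less RNA per cell cannot be told apart. Natural killer and innate lymphoid markers, the cells in which Nfil3 is best known, were near background: 4 of 8 were measured, the defining Ncr1, Klrb1c, Klrd1 and Eomes were not, and the sum of the others was 0.339 to 0.914 on the saline arrays and 0.329 to 0.514 on the P. gingivalis arrays. Macrophage markers (8 of 8 measured) summed to 42.4 to 49.2 and 40.9 to 48.8, adipocyte markers (8 of 8) to 328 to 352 and 340 to 426, nerve markers (6 of 6) to 17.4 to 19.2 and 15.3 to 19.3, and erythroid markers (6 of 7, without Hbb-bs) to 305 to 922 and 641 to 1006. The ranges overlapped for each of these. The macrophage sum is mostly Itgam, which differed by 0.08 ± 0.08 (SE), while 6 of its 8 genes had a lower P. gingivalis mean (median -0.20). Of the 8 adipocyte markers, 4 had a higher and 4 a lower P. gingivalis mean (median -0.02). All 6 erythroid markers measured had a higher P. gingivalis mean, although their sums overlapped. Their median difference was 0.57, or 0.29 without saline 3 and 0.86 without saline 4. The part of blood in the Nfil3 difference was not tested.

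Other sums moved with the group. Endothelial markers (8 of 8 measured) summed to 66.2 to 70.6 on the saline arrays and 52.4 to 59.4 on the P. gingivalis arrays. Of the 8, 6 had a lower and 2 a higher P. gingivalis mean (median -0.21). With median centring, 4 of the 8 were higher (median -0.07). Slow-fibre markers summed to 2959 to 3137 and 3245 to 3521, but their median difference of 0.12 was 0.02 under quantile normalization, with 6 of 8 in place of 8 of 8 higher. Neutrophil markers (6 of 8, without Retnlg and Ngp) summed to 3.89 and 3.30 in saline 1 and 2, to 1.19 and 1.38 in saline 3 and 4, and to 1.05 to 1.18 on the P. gingivalis arrays, so their groups nearly touched. The part of any of these in the Nfil3 difference was not tested. Fast-muscle markers (8 of 8) summed to 1657 to 2059 and 1789 to 2427, lowest in saline 1 and P. gingivalis 3, and without those 2 arrays the Nfil3 difference was 0.78.

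The genes whose pattern was most like that of Nfil3 over the 8 arrays were sought among 14805 named genes well above background on all of them, as a description. Among the 5 highest r were those of Nkiras1 (0.98), Metap2 (0.98), Ung (0.98) and Ccdc12 (0.98), and the 5 lowest were those of F730043M19Rik (-0.99), Kctd12b (-0.98), Rasa3 (-0.97), Micall2 (-0.97) and Gmip (-0.97). The group difference was positive in the first 4 of these 9 genes and negative in the others. For the deviations from the group means, r with Nfil3 was between 0.92 and 0.97 and between -0.95 and -0.89. Both follow largely from choosing the extremes of r over these same arrays, so nothing is read from them. For Dbp the highest r were those of Col2a1 (0.94), Saal1 (0.94), Eqtn (0.94), Morn2 (0.93) and Cks1b (0.93), and the lowest those of Tuba4a (-0.97), 1700028I16Rik (-0.95), Arhgap42 (-0.95), Rcan1 (-0.93) and Slc5a10 (-0.90).

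**Figure D5:**
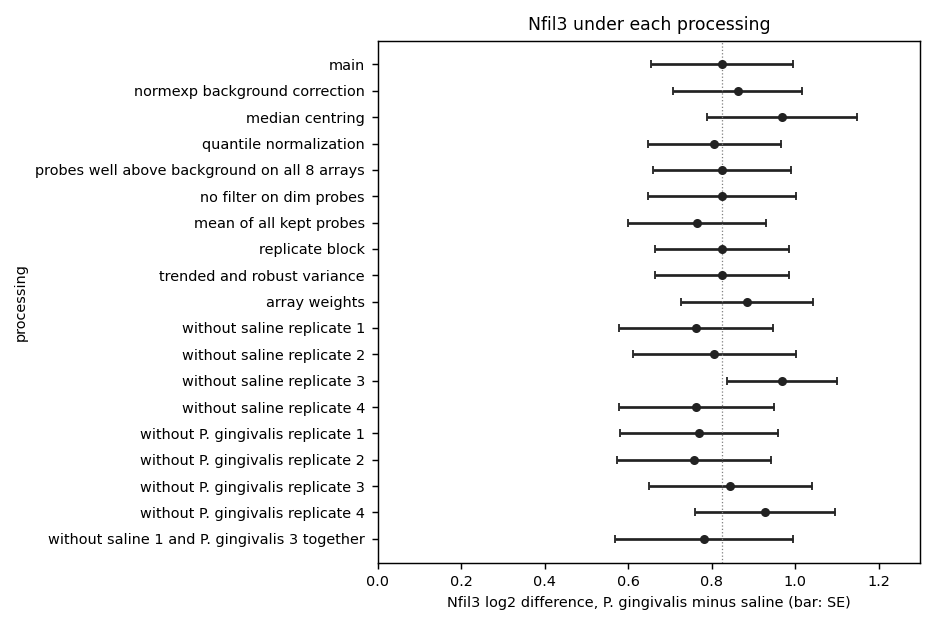
Log2 difference of Nfil3, P. gingivalis minus saline, with its SE, as reported and under 18 other settings of the processing. The difference stays between 0.76 and 0.97.

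The authors' deposited table lists 11 of the 15 probes. For Nfil3 a, the authors' deposited table gives a log2 difference of -0.80 with an adjusted p of 0.0450, in a table where 431 of 28250 rows (1.53%) lie under 0.05. Its size is close to the 0.83 above and its sign is opposite. In all 28250 rows of the authors' deposited table the difference equals, within 1e-06, the mean of the columns named P. gingivalis minus that of the columns named saline. All 8 of those columns matched an array of the opposite group, at the same replicate number, and 0 matched the array they name. For Bhlhe41 the authors' deposited table also gives opposite signs at the probes, -0.23 at Bhlhe41 a and 0.39 at Bhlhe41 b. For Rora b, the authors' deposited table gives -0.17, smaller in size than the 0.32 above. It remains unsettled which source, the sample records or the table, names the groups correctly.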

How the data were processed

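Total RNA of soleus muscle (200 ng) was labelled with Cy3 and hybridised to 1-colour Agilent mouse arrays, 4 per group. The deposited spot intensity values came from Agilent Feature Extraction 11.0.1.1, with mm9 probe positions, per the file headers, and the submitters' processing notes list version 11.1. Their processed signal is already background-subtracted, per the file headers. The deposited table gives log2 values, p-values and, by its column names, a moderated statistic and log odds (each a score, not used), and the authors' normalization is not given in the sources used here.

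The log2 of the processed signal minus each array's 75th percentile over non-control spots was used. Control and outlier-flagged spots were omitted, spots of 1 probe were averaged, and 239 probes whose spots were all flagged on an array were not used. Probes well above background on at least 4 arrays were kept (33638 of 56605), and a gene took its brightest probe. limma 3.58.1 (R 4.3.3) compared the groups over all 22223 genes by lmFit and eBayes, two-sided, without covariates and with Benjamini-Hochberg adjustment, and probes in a fit over all kept probes. The number of arrays limits the precision. In data simulated for this comparison over 22223 genes, 40% of genes changed by 0.5 (log2) and 77% of those changed by 1 were recovered, with 7 false calls.

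The members and lists were chosen with earlier results of these data known. Named genes were the members, the measured core clock genes, the 2 genes with the smallest p of each other list whose genes are named and the 5 highest and lowest correlations with Nfil3 and Dbp. Of the genes this rule named, 2 are not reported here. Alternatives covered background correction, scaling, the filter, the probe rule, a replicate block, variance models, array weights and each array left out.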

Additional observations from a re-analysis of the deposited data

Results flagged for a closer look

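Within a group of 4 arrays, 1 array stood apart from the other 3 in 2 of 52 groups of values tested, where chance alone gives about 2.6. Tef c on the saline arrays had a gap-to-range ratio of 0.873, since saline 1 read 2.83 and the others 3.03 to 3.06. Cry1 on the saline arrays had a ratio of 0.838, since saline 4 read -4.23 and the others -3.86 to -3.79. Without saline 1, the difference of Tef c was 0.07 in place of 0.12.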

How the results depend on the processing

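By limma, the number of genes past an adjusted p of 0.05 depended on the processing, from 26 as reported (8 higher and 18 lower) to 458 with normexp background correction (296 higher and 162 lower), 1593 with median centring (1512 and 81), 174 with quantile normalization (121 and 53), 261 when a probe had to be above background on each of the 8 arrays, 5154 with no filter on dim probes, 9 with the mean of a gene's probes, 567 with trended and robust variance, 199 with array weights, 57 of 33638 with every kept probe in 1 fit, 0 without saline 1 and P. gingivalis 3 together (3072 at an unadjusted p under 0.05), and 2 to 6 with 1 array left out. With the replicate number as a block it was 0 (4432 unadjusted), but same-numbered arrays correlated at only -0.06 to 0.23 and 1 of 4 best with its own number, so the numbers were not taken to pair the samples. Core clock genes past the threshold, 0 as reported, were 1 with normexp, 2 with median centring, 1 with no filter and 1 with trended and robust variance. Of the 5 related lists, 3 glucocorticoid targets, 3 muscle clock outputs and 1 C/EBP relative passed with median centring, 1, 0 and 1 with normexp, 2, 1 and 1 with no filter, and 1, 1 and 0 with trended and robust variance. The cause was not tested. Member pairs past the threshold stayed at 0 wherever they were recomputed. Median centring moved the median of all genes from -0.01 to 0.13, so it shifts every difference upward, and the core clock median then was 0.11. The Nfil3 difference stayed between 0.76 (without P. gingivalis 2) and 0.97 (without saline 3). Of the 7 members, Nfil3 alone passed the adjusted threshold in any setting. It did so in 4 of 18: normexp, median centring, no filter, and trended and robust variance. The Bhlhe40 difference kept its sign, down to -0.0027 with median centring. The sign turned in 3 settings for Dbp, 4 for Tef, 4 for Hlf, 1 for Bhlhe41 and 3 for Rora. Of the member probes, Rora a alone was not above background on all 8 arrays.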

Other observations

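Marker genes give the sums above by name. The endothelial receptor Kdr differed by -0.55 ± 0.10 (SE, limma adjusted p = 0.0643) and Egfl7, secreted by endothelium, by -0.40 ± 0.07 (SE, limma adjusted p = 0.0594), with groups apart at both. Of the 8 endothelial markers, 2 went the other way, 1 of them at an unadjusted limma p under 0.05. The fast-fibre calcium pump Atp2a1 differed by 0.50 ± 0.07 (SE, limma adjusted p = 0.0557, groups apart). The neutrophil calprotectin subunit S100a8 differed by -2.21 ± 0.72 (SE, limma adjusted p = 0.165), or by -1.45 with normexp, with overlapping groups. The neutrophil receptor Cxcr2 was well above background on 4 of 8 arrays only, and its difference was -1.45 as processed and -0.38 with normexp. The natural killer genes Prf1, perforin, and Tbx21, a transcription factor of these cells, differed by -0.25 ± 0.15 (SE, limma adjusted p = 0.401) and -0.38 ± 0.31 (SE, limma adjusted p = 0.519), the latter -0.07 with normexp. Of the 4 natural killer markers measured, 1 had a higher and 3 a lower P. gingivalis mean.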
